A study of Mus musculus with 12 samples.

Results

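The presynaptic vesicle and release genes are a set of 39 genes whose proteins fill, dock, fuse and recycle the synaptic vesicles of nerve terminals. They were taken by symbol from a table of 29454 genes measured in hippocampus of mouse pups, and all 39 were found. RNA was sequenced after removal of ribosomal RNA in 12 libraries of 3 groups, all littermates, with the strain given as C57/BL6 and the age as postnatal day 4, although the design text of the series says postnatal day 0. The 3 WT libraries came from pups with neither transgene. The 3 CAMK libraries came from CaMKIIα-tTA pups, in which the Camk2a promoter, active in excitatory neurons of the forebrain, drives the transactivator tTA. The 6 CX3CL1-ct libraries came from Tg-CX3CL1-ct/tTA pups, which carry the driver together with a transgene encoding the C-terminal portion of CX3CL1, a membrane-bound chemokine of neurons. The Tg-CX3CL1-ct line had been backcrossed to C57BL/6J for 6 generations before it met the driver. The labels give no sex, litter or batch and do not say that each library is a separate animal, so the p-values below reflect only how far these libraries spread, which may be technical.

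At a nerve terminal, transmitter transporters fill the vesicles, Rab3 and its effectors tether them, and scaffold proteins of the active zone hold them and the calcium channels at the release site. Munc13 proteins prime the vesicle, the SNARE proteins of vesicle and plasma membrane zipper together, complexins clamp and assist that step, and synaptotagmins start fusion when calcium enters. In rodent hippocampus these proteins accumulate as synapses form over the first weeks after birth. In whole tissue, fewer cells of a type and less RNA per cell cannot be told apart.

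The estimated depth was 11700000 to 16000000 fragments per library. Values are FPKM, the fragments of a gene per length of transcript and per library size, so levels can be compared between genes. The Cx3cl1 gene averaged 40.6 ± 1.89 FPKM over the WT libraries (SD, n = 3), 38.2 ± 3.46 over the CAMK libraries (n = 3) and 38.6 ± 5.49 over the CX3CL1-ct libraries (n = 6), and the groups overlapped, so the transgene was not visible in the gene-level values of the libraries labelled CX3CL1-ct. Whether the deposited values count reads of the transgene is not given in the sources used here. CX3CL1-ct 1, 2 and 3 differed from each other less than any other pair within a group: the robust SD of their log2 ratio was 0.0733 to 0.0996, against 0.103 to 0.259 in the other 18 pairs, so results are also given with their mean as 1 sample. CX3CL1-ct 5 stood apart. The summed FPKM of 12 hippocampal neuron markers was 184 there and 292 to 468 in the other libraries, and that of 16 thalamus and midline markers was 235, the highest of all. Neurod6, a marker of forebrain excitatory neurons, was at 43.8 FPKM there and at 81.2 to 163 elsewhere. Not all markers of that list were low in CX3CL1-ct 5. Wfs1 was highest there, at 8.47 FPKM against 5.22 to 8.36, and Spock1, at 28.8, lay within the 21.8 to 37.9 of the other libraries. Summed striatum markers were 488 in WT 2, 366 in WT 3 and 377 in CX3CL1-ct 5, and 108 to 172 in the others.

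Most of the genes were abundant in WT. The highest mean levels in WT were those of Syp, the vesicle membrane protein synaptophysin, at 174 ± 14.1 FPKM (SD, n = 3), Snap25, a SNARE of the plasma membrane, at 162 ± 19.4, and Rab3a, the vesicle GTPase, at 131 ± 20.9. The WT ranges of neighbours in this order overlapped. They lay at the 98.6, 98.5 and 98.0 percentiles of the 16503 genes with at least 1 FPKM in at least 3 libraries. Syt4, Syt1 and Slc17a7 followed at means of 109, 107 and 88.1 FPKM, with ranges of 101 to 113, 96.9 to 117 and 49.9 to 134. The lowest were Syt2, at 0.951 ± 0.0247 FPKM, then Unc13c, a Munc13 priming factor, at 5.51 ± 0.648, Vamp1 at 6.18 ± 1.05 and Sv2c at 8.99 ± 3.51. Within families 1 member was thus far above its relative: Vamp2 averaged 58.6 ± 2.64 FPKM against 6.18 for Vamp1, Syt1 107 against 0.951 for Syt2, and Unc13a 24.9 ± 2.15 against 5.51 for Unc13c. Syt2, the fast calcium sensor of hindbrain and other projection neurons, reached 1 FPKM in 2 libraries only, CAMK 2 at 1.37 and CX3CL1-ct 5 at 3.80, so 38 of the 39 genes were tested. The genes lie on 18 chromosomes, and in mm10 (GENCODE M21) their spans run from 3895 nt for Vamp2 to 1612060 nt for Nrxn3. Exons of 15 of them overlap another annotated gene, and use of strand in counting is not given in the sources used here, so reads of such pairs may be shared. Among these are Syn1 (with Araf), Syn3 (Timp3), Ppfia3 (Mtag2), Unc13a (Colgalt1) and Nrxn2 (Slc22a12).

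**Figure D1:**
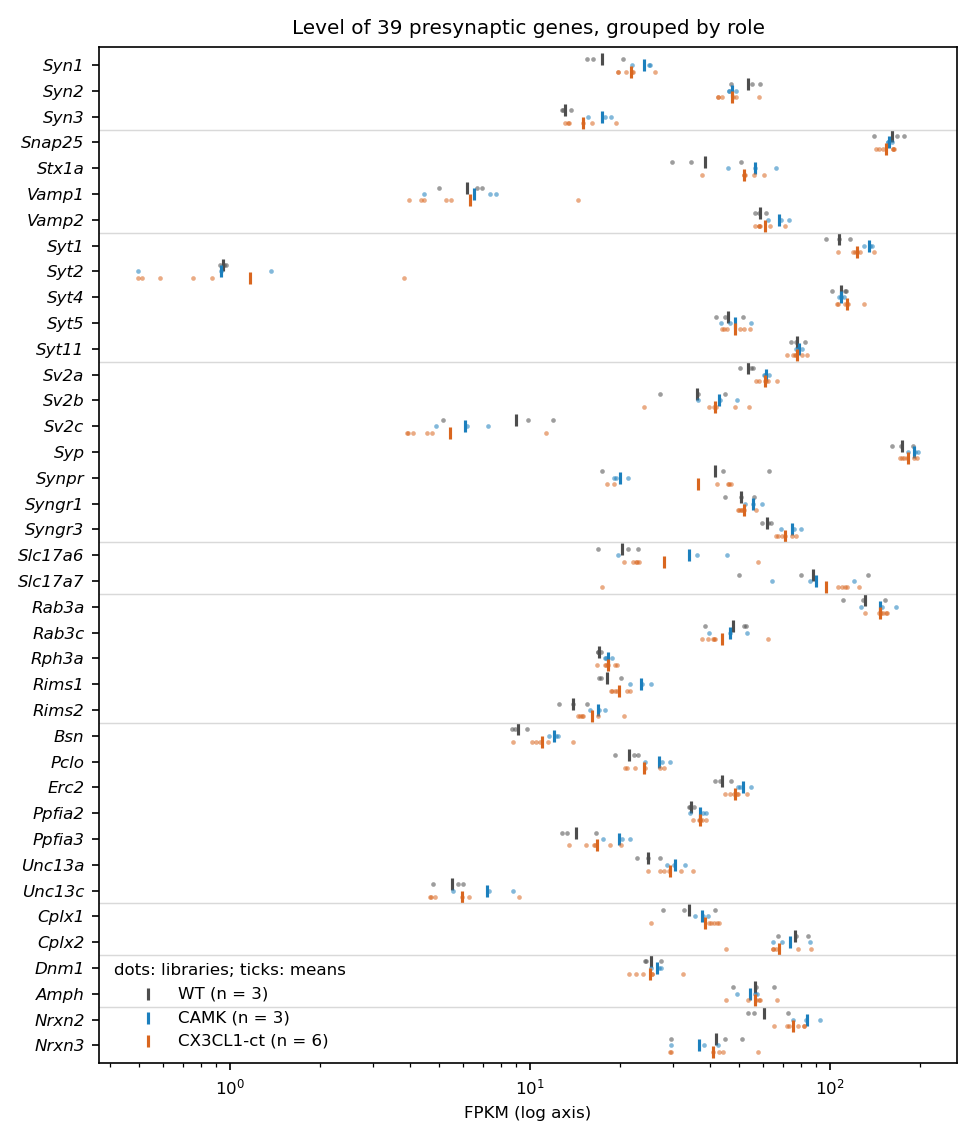
Level of the 39 presynaptic genes by role, in FPKM on a log axis. Dots are the libraries and vertical ticks the group means of 3 WT, 3 CAMK and 6 CX3CL1-ct libraries; Syp and Snap25 lie farthest right, Syt2 farthest left, and the lone orange dots of Vamp1, Syt2, Sv2c and Slc17a6 at the right and of Slc17a7 at the left are CX3CL1-ct 5.

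The first comparison, CAMK against WT, asks what goes with the driver alone. Many of the genes were higher in CAMK, by small amounts, and none passed the adjusted threshold in the fit without pairing. Syn1, synapsin 1, Rims1, a scaffold that binds Rab3, Ppfia3, a liprin, and Nrxn2, a presynaptic adhesion receptor, were each 1.30 to 1.39 times as high in mean FPKM. The 3 CAMK libraries lay above all 3 WT libraries for 15 of the 38 genes tested, against 9.22% of all genes, and below them for 0 of 38, against 8.8%. These 15 were Syn1, Syn3, Vamp2, Syt1, Sv2a, Syngr3, Rph3a, Rims1, Rims2, Bsn, Pclo, Erc2, Ppfia3, Unc13a and Nrxn2. The log2 difference was above 0 for 30 of 38 genes, against 50.5% of all genes, and its median was 0.17, against 0.00 over all genes tested. With limma, 0 of 38 genes had an adjusted p under 0.05, against 0.358% of all genes, and 14 had an unadjusted p under 0.05, all higher in CAMK, against 6.6% of all genes. Same-numbered CAMK and WT libraries deviated together. The labels give no pairing, so calls with the block below rest on a pairing read from these same libraries. With the replicate number as a block limma called 7 of 38 genes, all higher in CAMK, against 1.87% of all genes: Syn3, Syngr3, Bsn, Pclo, Ppfia3, Unc13a and Nrxn2. The median difference was 0.09 without WT 2, the library in which 17 of the 38 genes had their lowest value of all 12 libraries, and the groups then did not overlap for 15 genes higher and 3 lower in CAMK, against 11.6% and 14.1% of all genes. Without WT 1 these counts were 20 and 3, against 17.1% and 20.4%, and without CAMK 3 they were 15 and 1, against 10.5% and 12.7%.

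By role, the active zone genes stood higher in CAMK most evenly. All 7 had a difference above 0, with a median of 0.32, and 5 of the 7 did not overlap. Bassoon, Bsn, a giant scaffold that organises the release site, was at 9.80, 8.91 and 8.74 FPKM in WT and at 12.4, 12.2 and 11.6 in CAMK. Every CAMK library was above every WT library. The log2 difference was 0.36 (SE 0.12), with an adjusted p of 0.243 in limma and of 0.0267 with the block. The liprin gene Ppfia3, whose protein anchors other scaffold proteins, was at 16.7, 13.3 and 12.9 FPKM in WT and at 21.6, 17.5 and 20.3 in CAMK. The groups did not overlap, although WT 1 and CAMK 2 were close. Its difference was 0.45 (SE 0.14), with an adjusted p of 0.202 in limma and of 0.0465 with the block. Pclo, which encodes the bassoon relative piccolo, had means of 21.5 ± 2.01 FPKM (SD, n = 3) in WT and 27.1 ± 2.54 in CAMK, and Unc13a, the main Munc13 gene, 24.9 ± 2.15 and 30.6 ± 2.06. Neither overlapped between the groups, with differences of 0.32 and 0.29. The block cannot change these sizes, because CAMK and WT hold the same replicate numbers. Both genes were called with the block, with adjusted p of 0.0426 and 0.0437 in limma, and not without it, with 0.321 and 0.324. Erc2, a scaffold of the ELKS family, averaged 43.7 ± 2.73 and 51.4 ± 2.68 FPKM and did not overlap, whereas Ppfia2, a second liprin, overlapped at 34.5 ± 0.652 and 36.9 ± 2.27. Unc13c spread more, at 4.78, 5.77 and 5.99 FPKM in WT and 5.53, 8.82 and 7.32 in CAMK. CAMK 1 lay inside the WT range, and the difference of 0.32 (SE 0.21) had an adjusted p of 0.592 in limma.

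Of the 5 Rab3 genes and effectors, 4 had a difference above 0 and 3, Rph3a, Rims1 and Rims2, did not overlap. Rims1, which links Rab3 on the vesicle to Munc13 and the calcium channels, was at 17.3, 17.0 and 20.2 FPKM in WT and at 21.7, 25.3 and 23.7 in CAMK. All 3 CAMK values were above the highest WT value, that of WT 3. The difference of 0.36 (SE 0.08) had the smallest adjusted p of the 38 genes, 0.0992 in limma, and 0.0549 with the block. Rab3a overlapped, with means of 131 ± 20.9 FPKM in WT and 147 ± 19.9 in CAMK, as did Rab3c at 47.6 ± 8.05 and 46.4 ± 6.68.

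The synapsins, phosphoproteins that hold the reserve pool of vesicles, differed among themselves. Syn1 was at 20.5, 16.2 and 15.6 FPKM in WT and at 21.9, 25.1 and 25.0 in CAMK. The groups did not overlap, and WT 1 lay nearest to CAMK. The difference was 0.45 (SE 0.12), with an adjusted p of 0.141 in limma and of 0.0914 with the block. Syn3 averaged 13.1 ± 0.505 and 17.4 ± 1.55 FPKM and was called higher with the block, with an adjusted p of 0.0248 in limma. Syn2 was the synapsin with a negative difference: its means were 53.5 ± 6.08 FPKM in WT and 47.1 ± 1.45 in CAMK, and CAMK libraries overlapped WT 2.

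Among the 4 SNARE genes, Vamp2, the vesicle SNARE of forebrain terminals, was at 61.5, 58.0 and 56.3 FPKM in WT and at 62.1, 72.9 and 69.0 in CAMK. CAMK 1 lay just above WT 1, so the groups did not overlap by a small margin. The difference was 0.21 (SE 0.09), with an adjusted p of 0.366 in limma. Stx1a, the syntaxin of the plasma membrane, was at 50.6, 29.7 and 34.6 FPKM in WT and at 66.4, 45.8 and 56.4 in CAMK. WT 1 lay above CAMK 2, so the groups overlapped, and within each number CAMK was higher. Its difference of 0.56 (SE 0.20) had an adjusted p of 0.288 in limma, and of 0.0558 with the block. Snap25 showed no such shift, at 177, 140.0 and 168 FPKM in WT and at 162, 156 and 157 in CAMK. All CAMK values were inside the WT range, and the difference was -0.02 (SE 0.09, adjusted p 0.947 in limma).

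The main calcium sensor gene, Syt1, was at 117, 96.9 and 108 FPKM in WT and at 136, 130.3 and 139 in CAMK. All CAMK libraries were above all WT libraries. Its difference was 0.33 (SE 0.09), with an adjusted p of 0.171 in limma and of 0.0521 with the block. The other synaptotagmins tested overlapped: Syt4 averaged 109 ± 6.67 FPKM in WT and 109 ± 2.15 in CAMK, Syt5 45.9 ± 4.92 and 48.2 ± 5.74, and Syt11 78.1 ± 4.46 and 78.7 ± 2.03. Of the 7 other vesicle membrane genes, Sv2a and Syngr3 did not overlap. Syngr3, a synaptogyrin, averaged 61.7 ± 2.20 and 75.1 ± 5.85 FPKM and was called higher with the block, with an adjusted p of 0.0409 in limma. Syp was at 189, 161 and 173 FPKM in WT and at 192, 182 and 197 in CAMK. CAMK 2 lay below WT 1, and the difference of 0.13 (SE 0.07) had an adjusted p of 0.528 in limma.

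Nrxn2, whose neurexin binds partners across the synaptic cleft, was at 72.5, 53.2 and 55.8 FPKM in WT and at 92.5, 75.4 and 83.4 in CAMK. The groups did not overlap, and number 1 was the highest library in both. The difference was 0.47 (SE 0.12), with an adjusted p of 0.137 in limma and of 0.0315 with the block. Without WT 1 it was 0.61, with an adjusted p of 0.0488 in limma. The complexins Cplx1 and Cplx2 and the endocytosis genes Dnm1, encoding dynamin 1, and Amph, encoding amphiphysin, overlapped, with differences between -0.06 and 0.16.

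Other cell types also differed between these libraries. Of the marker list sums, 2 lay lower in every CAMK library than in every WT library, 1 higher, and 10 overlapped. The 16 markers of dividing cells summed to 75.3 to 83.3 FPKM in CAMK and to 95.3 to 110.1 in WT, and Birc5 and Cdk1 of them were called lower by limma. The 14 GABAergic neuron markers summed to 419 to 436 in CAMK and to 472 to 546 in WT, with 0 of 14 called, and the 12 meningeal fibroblast markers to 93.3 to 103 and to 55.8 to 89.3, with 0 of 12 called. No marker of these 3 lists was at 0 in any library. Their part in the higher presynaptic values was not tested. The sum of the hippocampal neuron markers overlapped, at 332 to 411 in CAMK and 292 to 468 in WT, but single markers differed both ways. Zbtb20, Fibcd1, Prox1, Wfs1 and Grik4 were lower in every CAMK library than in every WT library. Fibcd1 was at 4.11 to 5.33 FPKM in CAMK and at 7.07 to 11.4 in WT. Spock1 was wholly higher, at 35.3 to 37.8 FPKM in CAMK and 21.8 to 23.7 in WT, and was called by limma. The other markers of this list overlapped, and the part of such neurons was not tested either.

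**Figure D2:**
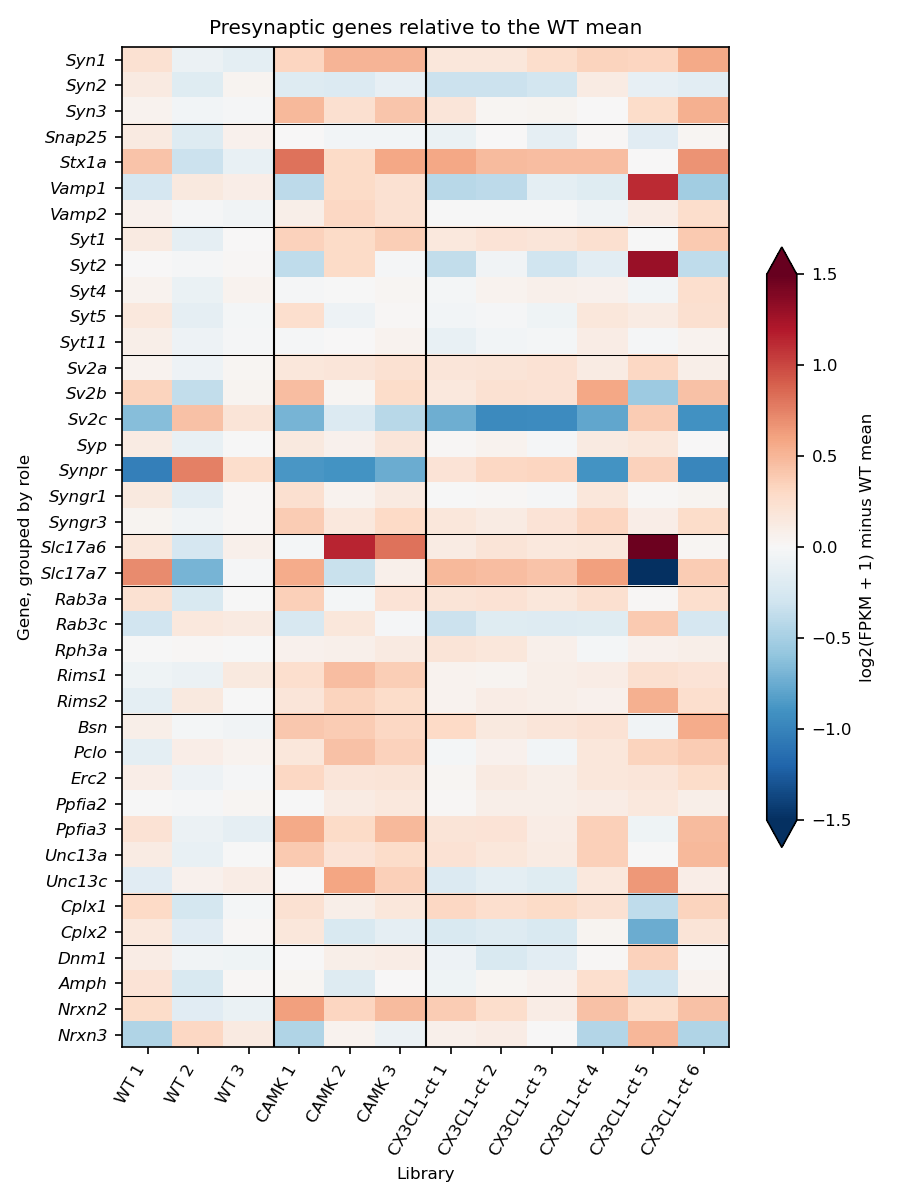
Each of the 39 genes in each of the 12 libraries, as log2(FPKM + 1) minus the WT mean of the gene, with colours limited at 1.5 either way. The CAMK columns are mostly above the WT mean for the active zone genes, and CX3CL1-ct 5 is far above WT for Vamp1, Syt2 and Slc17a6 and below it for Slc17a7.

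To show what lies before genes of this set, 2 RefSeq promoter windows (GRCm38.p6) are printed 5′ to 3′ on the gene's strand. They are those of Syn1 and Ppfia3, 2 of the 15 genes higher in every CAMK library. Capitals mark TCAGCACC, the left part of the RE1 element that the repressor REST is known to bind, TGACGTCA, the CRE palindrome, and GGGCGG or its reverse complement, the Sp1 box. Both strands were searched, and no motif overlapped another of a different kind. The Syn1 window, chrX:20921005-20921168 on the minus strand, is given only up to the first exon, and the Ppfia3 window, chr7:45367020-45367269 on the minus strand, overlaps an exon of Mtag2 on the other strand.
Syn1: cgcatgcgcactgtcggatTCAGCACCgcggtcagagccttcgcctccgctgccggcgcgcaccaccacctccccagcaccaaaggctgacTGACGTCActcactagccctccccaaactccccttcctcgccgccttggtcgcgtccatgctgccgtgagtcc
Ppfia3: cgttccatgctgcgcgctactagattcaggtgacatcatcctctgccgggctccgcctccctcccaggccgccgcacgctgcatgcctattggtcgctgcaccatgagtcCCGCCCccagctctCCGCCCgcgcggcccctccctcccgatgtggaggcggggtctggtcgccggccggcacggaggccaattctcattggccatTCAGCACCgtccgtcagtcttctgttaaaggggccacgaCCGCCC
TCAGCACC was found in 2 of the 44 windows of the 31 genes with an entry, those of Syn1 and Ppfia3, and in 1.32% of all 32851 windows of 250 bases. The 2 printed windows are thus the only ones of the 44 with TCAGCACC, and they do not stand for the other genes. TGACGTCA was found in 1 of the 44, that of Syn1, and in 1.55% of all windows. GGGCGG was found in 24 of the 44 and in 32.7% of all windows. These matches are descriptions of letters and not of binding, and the motifs were chosen after the expression values were seen.

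The second comparison, CX3CL1-ct against WT, sets the libraries labelled with driver and transgene against those with neither. The vesicle genes Sv2a and Syngr3 lay above every WT library in each of the 6 CX3CL1-ct libraries. They were 1.14 and 1.15 times as high in mean FPKM, and all other genes of the set overlapped. This count of 2 of 38 stands beside 4.67% of all genes, and 0 of 38 lay wholly lower, beside 1.38%. The difference was above 0 for 28 of 38 genes, beside 62.7% of all genes, with a median of 0.09, beside 0.04 over all genes. With limma, 0 of 38 were called, beside 0.454% of all genes, and 0 with the replicate block, beside 3.27%. The block result rests on CX3CL1-ct 1 to 3 alone, since CX3CL1-ct 4 to 6 carry no weight in that fit. At an unadjusted p under 0.05 there were 8 genes higher, beside 8.8% of all genes, and 1, Sv2c, lower, beside 3.49%. The count of genes wholly higher depended on single libraries: it was 10 without WT 1, beside 11.8% of all genes, 4 without WT 3, beside 7.69%, and 6 without CX3CL1-ct 5, beside 8.56%. It was 3 without WT 2, CX3CL1-ct 1 or CX3CL1-ct 4 or with CX3CL1-ct 1 to 3 averaged, beside 6.45%, 5.84%, 6.27% and 6.78%. The count wholly lower was 1 without WT 2, beside 3.33% of all genes, and 1 without CX3CL1-ct 5, beside 2.74%, both near the background. The WT libraries are the same as in the first comparison, so the sets of values are not independent.

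Sv2a, a glycoprotein of every synaptic vesicle, was at 55.4, 50.4 and 54.5 FPKM in WT and from 56.6 to 66.7, with a median of 61.0, in CX3CL1-ct. The lowest CX3CL1-ct library lay just above WT 1, and the difference of 0.19 (SE 0.06) had an adjusted p of 0.203 in limma, the smallest of the 38. Syngr3 was at 63.5, 59.3 and 62.3 FPKM in WT and from 66.0 to 77.2, with a median of 70.2, in CX3CL1-ct, a difference of 0.20 (SE 0.07, adjusted p 0.251 in limma).

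The leading genes of the first comparison lay between WT and CAMK in CX3CL1-ct, by their means. Syn1 ran from 19.6 to 26.2 FPKM with a median of 21.4. The lower CX3CL1-ct values were below WT 1, so the groups overlapped, and the difference from WT was 0.31 (SE 0.10, adjusted p 0.257 in limma). Nrxn2 ran from 65.0 to 82.0 FPKM with a median of 75.6. Its lowest values were below WT 1, and the difference was 0.32 (SE 0.11, adjusted p 0.253 in limma). Stx1a ran from 37.5, in CX3CL1-ct 5, to 60.2, with a median of 52.0. The other 5 libraries lay above all of WT, and the difference was 0.44 (SE 0.18, adjusted p 0.343 in limma).

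Syt1 ran from 106 to 141 FPKM with a median of 122 and overlapped WT in CX3CL1-ct 5, with a difference of 0.20 (SE 0.08, adjusted p 0.365 in limma). Bsn ran from 8.78 to 13.9 with a median of 10.7, again with CX3CL1-ct 5 inside the WT range, and differed by 0.22 (SE 0.10, adjusted p 0.412 in limma). All 7 active zone genes had a difference above 0, with a median of 0.15, and 0 of the 7 were wholly higher. Ppfia3 ran from 13.5 to 20.1 FPKM with a median of 16.4 (difference 0.21, SE 0.12, adjusted p 0.489 in limma). Values of Rims1 ran from 18.7 to 21.6 with a median of 19.4, and WT 3 lay inside this range (difference 0.12, SE 0.07, adjusted p 0.525 in limma).

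Little separated the groups for Snap25, Syp and Vamp2. Snap25 ran from 142 to 164 FPKM with a median of 156 (difference -0.06, SE 0.08), Syp from 172 to 195 with a median of 179 (0.06, SE 0.06), and Vamp2 from 56.5 to 70.8 with a median of 58.3 (0.05, SE 0.08). Each overlapped WT, with adjusted p of 0.789, 0.737 and 0.821 in limma. In CX3CL1-ct the meningeal fibroblast marker sum, 96.9 to 205 FPKM, also lay wholly above the 55.8 to 89.3 of WT, with 4 of 12 called higher, and the other 12 list sums overlapped. Its part in these differences was not tested.

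The third comparison, CX3CL1-ct against CAMK, sets the libraries labelled with driver and transgene against those with the driver alone. Here the genes were mostly slightly lower in CX3CL1-ct, and Rims1 alone did not overlap. Rims1 was at 21.7, 25.3 and 23.7 FPKM in CAMK, and its highest CX3CL1-ct value, 21.6, lay just below CAMK 1. The difference was -0.24 (SE 0.07), with an adjusted p of 0.725 in limma and an unadjusted p of 0.00750. It was the only one of the 38 with an unadjusted p under 0.05 in either direction, beside 6.37% of all genes. Of all genes, 1.04% were lower at that threshold. This 1 of 38 wholly lower stands beside 0.527% of all genes, and 0 of 38 were wholly higher, beside 2.78%. With limma 0 of 38 were called, beside 0.0606% of all genes, and 0 with the replicate block, beside 1.04%. Here too the block result rests on CX3CL1-ct 1 to 3 alone.

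The difference was above 0 for 9 of 38 genes, or 23.7%, beside 63.2% of all genes, and the median was -0.08, beside 0.04. With libraries rescaled by median ratio or by quantiles the share of the 38 above 0 was 10.5%. Rescaling also lowered the median over all genes, from 0.04 to -0.0028 and 0.00065. The share of all genes above 0 after rescaling is not given here. The median was -0.04 without CAMK 1, and -0.05 with CX3CL1-ct 1 to 3 averaged. The count wholly lower was 4 without CX3CL1-ct 6, beside 2.05% of all genes, 3 without CAMK 2, beside 1.67%, and 2 without CX3CL1-ct 4 or 5, beside 0.903% and 1.36%. Without CX3CL1-ct 5, 1 gene of the 38 was wholly higher, beside 4.88% of all genes. By role, 0 of the 3 synapsins, 0 of the 4 SNARE genes and 1 of the 7 active zone genes, Ppfia2, had a difference above 0. Syn1, Bsn and Nrxn2 differed by -0.14 (SE 0.10), -0.14 (SE 0.10) and -0.15 (SE 0.11), with adjusted p of 0.869, 0.875 and 0.858 in limma. Ppfia3 differed by -0.24 (SE 0.12) and Unc13c by -0.26 (SE 0.18), with adjusted p of 0.775 and 0.861 in limma. Vamp2, Syt1 and Stx1a differed by -0.16, -0.14 and -0.12, Syp by -0.07 and Snap25 by -0.04, with adjusted p from 0.775 to 0.967 in limma. Dividing cell markers summed to 84.5 to 102 FPKM in CX3CL1-ct, wholly above CAMK, with 0 of 16 called, and the other 12 list sums overlapped. The part of these cells in the lower presynaptic values was not tested.

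**Figure D3:**
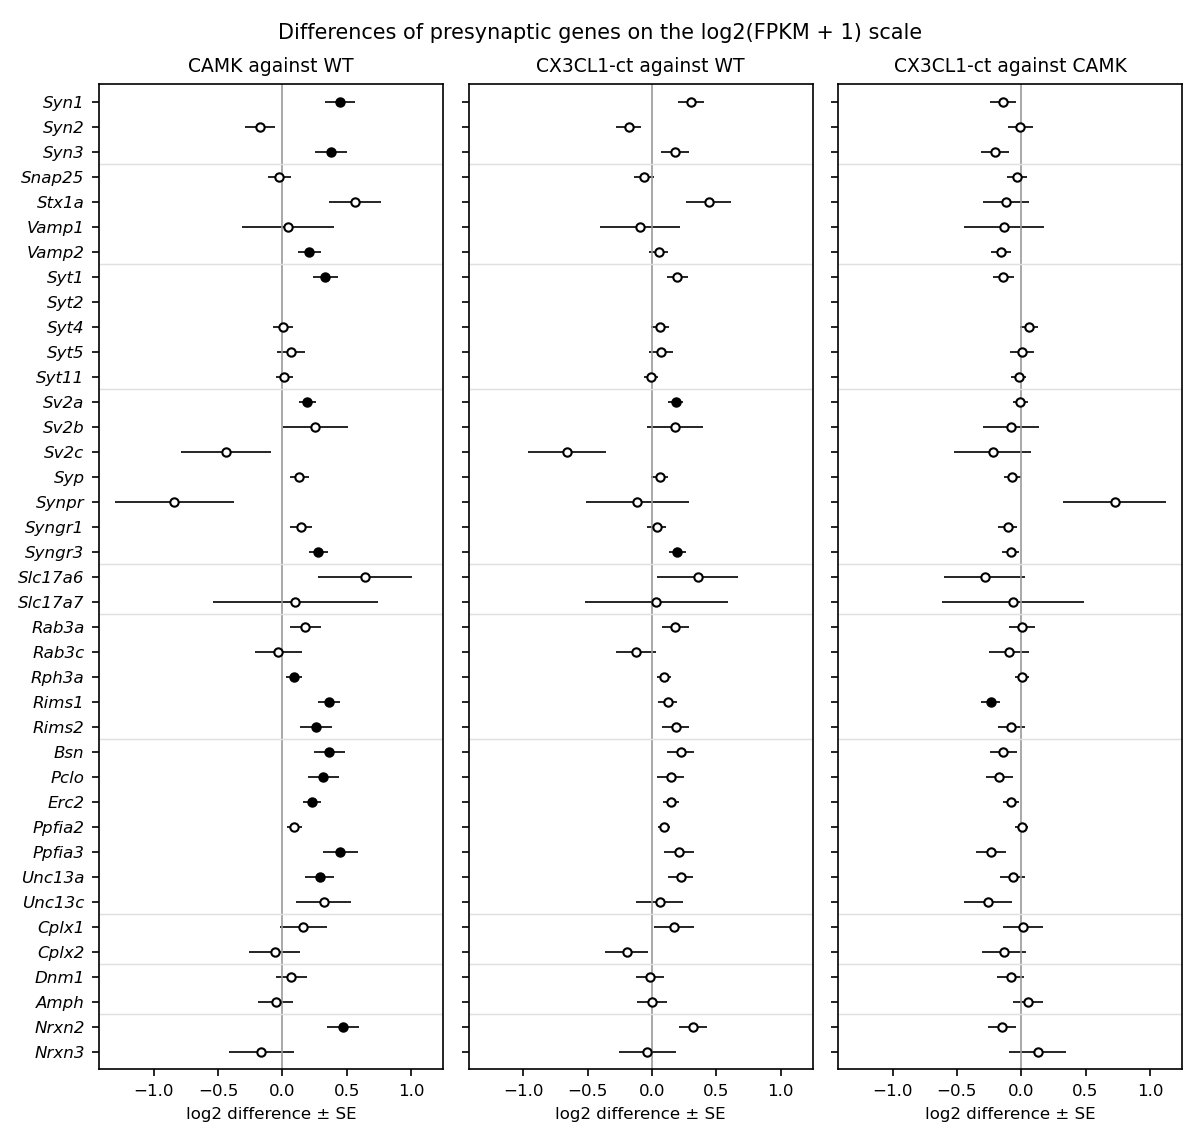
Log2 difference (of FPKM + 1) with its SE for the 38 genes tested in the 3 comparisons, with filled points where the groups do not overlap. The filled points are 15 in CAMK against WT, all to the right of 0, 2 in CX3CL1-ct against WT and 1, Rims1, to the left of 0 in CX3CL1-ct against CAMK.

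The vesicular glutamate transporters varied more between libraries than between groups. Slc17a7 encodes VGLUT1, the main transporter of hippocampal and cortical excitatory neurons, and Slc17a6 encodes VGLUT2, which prevails in thalamus and brainstem and in many young neurons. Their windows before the RefSeq start are printed because the pair went apart in single libraries. They are chr7:45163671-45163920 and chr7:51621580-51621829, both on the plus strand, with the Sp1 box or its reverse complement in capitals.
Slc17a7: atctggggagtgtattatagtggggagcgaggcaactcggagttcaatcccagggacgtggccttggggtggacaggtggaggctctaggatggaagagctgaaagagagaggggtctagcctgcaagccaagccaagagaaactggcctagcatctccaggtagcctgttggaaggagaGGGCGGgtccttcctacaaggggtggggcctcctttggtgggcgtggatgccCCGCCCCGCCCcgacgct
Slc17a6: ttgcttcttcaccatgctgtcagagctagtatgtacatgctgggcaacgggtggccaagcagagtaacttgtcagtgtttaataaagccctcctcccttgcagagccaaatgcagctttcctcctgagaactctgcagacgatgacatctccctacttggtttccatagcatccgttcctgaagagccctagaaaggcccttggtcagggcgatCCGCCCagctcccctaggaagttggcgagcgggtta
Slc17a7 was at 134, 49.9 and 80.2 FPKM in WT, at 120.4, 64.2 and 85.9 in CAMK, and from 17.4 to 125, with a median of 111, in CX3CL1-ct. Number 1 was the highest in WT and in CAMK, and CX3CL1-ct 5 was far below every other library. The groups overlapped throughout, with differences of 0.10 (SE 0.64) for CAMK against WT, 0.03 (SE 0.55) for CX3CL1-ct against WT and -0.07 (SE 0.55) for CX3CL1-ct against CAMK, and adjusted p of 0.973, 0.986 and 0.992 in limma. Without CX3CL1-ct 5 the other 5 libraries of the group lay close together, at 107 to 125 FPKM, and the difference from CAMK was 0.37.

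Slc17a6 was at 22.9, 16.8 and 21.3 FPKM in WT, at 19.7, 45.6 and 36.2 in CAMK, and from 20.7 to 57.5, with a median of 22.7, in CX3CL1-ct. CAMK 2, CAMK 3 and CX3CL1-ct 5 were high and the 9 other libraries low. The differences were 0.64 (SE 0.36), 0.36 (SE 0.32) and -0.28 (SE 0.32) in the same order, with adjusted p of 0.525, 0.674 and 0.933 in limma. Without CX3CL1-ct 5 the group's difference from WT was 0.13. The ratio of Slc17a7 to Slc17a6 was 5.86, 2.97 and 3.77 in WT, 6.12, 1.41 and 2.37 in CAMK, 0.303 in CX3CL1-ct 5 and 4.83 to 5.49 in the other CX3CL1-ct libraries. CX3CL1-ct 5 was the only library with more Slc17a6 than Slc17a7. The thalamus and midline markers, 16 of 16 in the table, summed to 211 and 174 FPKM in CAMK 2 and CAMK 3, to 235 in CX3CL1-ct 5 and to 88.2 to 154 in the others. Tcf7l2, which marks thalamus, was at 23.0, 15.8 and 12.2 FPKM in those 3 libraries and at 1.04 to 4.48 in the others. Gbx2, Lef1, Ntng1, Rora, Lhx9, Slitrk6, Pou4f1 and Irx1 were also higher in each of the 3 than in any other library. The rest of the list, Prkcd, Cbln1, Calb2, Adarb1, Foxp2, Zic1 and Zic4, did not separate them. Prkcd was at 5.63, 6.99 and 5.61 FPKM in the 3 and reached 8.72 in CX3CL1-ct 4. Cbln1 was highest in CX3CL1-ct 1, at 23.5. Gbx2 and Pou4f1, also thalamic and midline markers, were both at 0 in WT 1 and CAMK 1. The part of such tissue in the transporter values was not tested.

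The same CX3CL1-ct library stood out for paralogs that prevail outside the forebrain. Vamp1, the relative of Vamp2 known from spinal cord and brainstem, was at 14.5 FPKM in CX3CL1-ct 5 and at 3.95 to 7.71 in the others. Vamp2 at 63.3 FPKM was within the range of the other libraries there, so the ratio of Vamp2 to Vamp1 was 4.38, against 8.38 to 17.9. The ratio of Syt1 to Syt2 was 28.0 in CX3CL1-ct 5 and 95.0 to 284 in the others. For Unc13c the library stood out only within its group, since CAMK 2 was at 8.82 FPKM and CAMK 3 at 7.32. Unc13c ran from 4.64 to 9.18 FPKM in CX3CL1-ct, with a median of 5.39 and its maximum in library 5. In CX3CL1-ct it differed from WT by 0.06 (SE 0.18, adjusted p 0.923 in limma). Without CX3CL1-ct 5 that difference was -0.06.

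**Figure D4:**
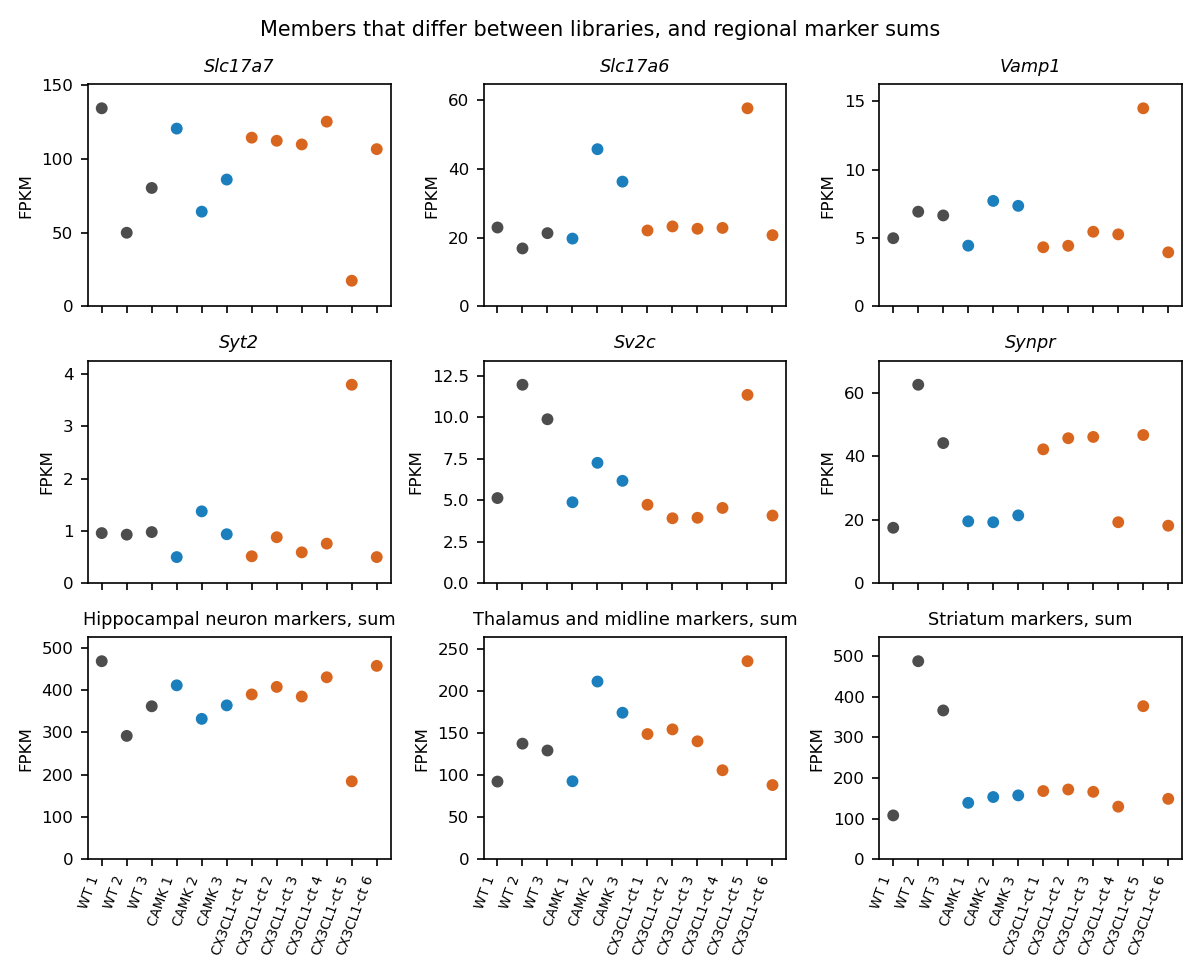
FPKM of 6 presynaptic genes and summed FPKM of 3 marker lists, by library, coloured by group. Slc17a6 and the thalamus and midline sum are high in CAMK 2, CAMK 3 and CX3CL1-ct 5, Sv2c and the striatum sum in WT 2, WT 3 and CX3CL1-ct 5, and Slc17a7 and the hippocampal sum are lowest in CX3CL1-ct 5.

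Synpr had the largest negative difference from WT in CAMK, and Sv2c in CX3CL1-ct. Sv2c, the SV2 form known from basal ganglia, was at 5.13, 12.0 and 9.89 FPKM in WT, at 4.87, 7.25 and 6.17 in CAMK, and from 3.91 to 11.4, with a median of 4.30, in CX3CL1-ct. WT 2, WT 3 and CX3CL1-ct 5 were high, and these were the 3 libraries with striatum marker sums of 366 to 488 FPKM. Its differences were -0.44 (SE 0.35) for CAMK against WT, -0.66 (SE 0.30) for CX3CL1-ct against WT and -0.22 (SE 0.30) for CX3CL1-ct against CAMK, with adjusted p of 0.671, 0.404 and 0.949 in limma. The 16 striatum markers had 0 called in each comparison. Their part in the Sv2c values was not tested.

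Synpr, encoding synaptoporin, a vesicle protein known from mossy fibre terminals and interneurons, was at 17.4, 62.6 and 44.2 FPKM in WT, at 19.4, 19.2 and 21.3 in CAMK, and from 18.1 to 46.7, with a median of 43.9, in CX3CL1-ct. WT 2, WT 3 and CX3CL1-ct 1, 2, 3 and 5 were high, and WT 1, CX3CL1-ct 4 and 6 and all of CAMK were low, with no library between 21.3 and 42.2. The differences were -0.84 (SE 0.46), -0.11 (SE 0.40) and 0.73 (SE 0.40) in the same order, with adjusted p of 0.508, 0.933 and 0.787 in limma. In CX3CL1-ct 1 to 3 the striatum sum was 166 to 172 FPKM. The adhesion gene Nrxn3 lay at 29.4 to 29.7 FPKM in WT 1, CAMK 1 and CX3CL1-ct 4 and 6, and at 38.1 to 57.9 in the other libraries, so CAMK 2 and 3 were low for Synpr and not for Nrxn3.

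A wider list of 66 presynaptic genes outside the 39 gave 65 in the table, all tested. In CAMK against WT limma called 1 of the 65, higher, beside 0.358% of all genes. A difference above 0 was seen in 46 of the 65, beside 50.5% of all genes, with a median of 0.12, beside 0.00. Of the 65, 16 were wholly higher, beside 9.22%, and 4 wholly lower, beside 8.8%. With the replicate block limma called 5, all higher, beside 1.87%, among them Syt7, Rims4, Dnm3 and Ptprd. In CX3CL1-ct against WT 1 of the 65 was called, higher, beside 0.454% of all genes, and 51 were above 0, beside 62.7%, with a median of 0.09, beside 0.04. Of the 65, 10 were wholly higher, beside 4.67%, and 0 wholly lower, beside 1.38%. These single calls were lost when only the 2 groups were fitted, when CX3CL1-ct 1 to 3 were averaged, and without WT 2, WT 3 or CAMK 3. The call for CAMK was also lost without CAMK 1 or CAMK 2, and that for CX3CL1-ct without CX3CL1-ct 1, 2 or 3 and with either rescaling. Against CAMK, 27 of the 65 were above 0, beside 63.2% of all genes, with a median of -0.02, beside 0.04. Of the 65, 0 were called, beside 0.0606%, and 3, or 4.62%, had an unadjusted p under 0.05 in limma, beside 6.37% of all genes. The 2 smallest p there were those of Rab3gap2, a regulator of Rab3, and Cplx3, a complexin best known from retina. Rab3gap2 was at 12.8, 12.9 and 13.0 FPKM in CAMK and from 13.9 to 15.1, with a median of 14.4, in CX3CL1-ct. The groups did not overlap, and the difference of 0.16 (SE 0.05) had an adjusted p of 0.725 in limma. Cplx3 was near the detection limit, at 1.97, 0.916 and 1.13 FPKM in CAMK and from 0.123 to 1.54, with a median of 0.245, in CX3CL1-ct, where library 6 overlapped CAMK (difference -0.71, SE 0.25, adjusted p 0.725 in limma).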

How the data were processed

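Hippocampal RNA of 12 libraries (3 WT, 3 CAMK, 6 CX3CL1-ct) was analysed from the table of FPKM deposited by the authors. Sample titles gave the group and replicate number, and columns named CAMK2 were matched to the CAMK titles. Per the submitters' processing notes TopHat, Bowtie, Cufflinks and Cuffdiff were used with mm10; versions, scaling between libraries and use of strand are not given in the sources used here. Per the labels' protocols, stranded total RNA libraries were made from 100 ng or more of RNA (integrity number 7.0 or more) and read for 100 cycles from both ends. The table holds no counts. Depth was estimated at 11700000 to 16000000 fragments from the FPKM that 1 fragment gives in single-exon genes with 1 transcript and a length of 500 to 5000 nt, for fragments of 180 nt, and it limits the precision of low genes.

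FPKM were taken as log2(FPKM + 1), a scale on which changes of low genes come out too small. Genes with at least 1 FPKM in at least 3 libraries were kept (16503 of 29454). limma 3.58.1 (R 4.3.3) fitted 3 group means to the 12 libraries (eBayes with trend); p-values are two-sided, with Benjamini-Hochberg adjustment across the genes tested and a threshold of 0.05. The fit was tested on simulated data. Python 3.11.15, pandas 2.3.3 and numpy 2.4.6 made tables. Of the gene IDs, 29258 matched GENCODE M21.

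Same-numbered CAMK and WT libraries deviated from their group means together, with correlations over genes of 0.236, 0.163 and 0.100, each over 0.1, so the numbers were taken to pair them, and the fit with the number as a block stands beside those results; the numbers of CX3CL1-ct do not pair it with CAMK, at 0.110, -0.130 and -0.0912, or WT, at 0.114, -0.0622 and 0.0106. No label gives the pairing of CAMK with WT, which was read from these same libraries. The block is shared by all 3 groups, so CX3CL1-ct 1 to 3 also enter its effects and its error, although their numbers do not pair. In that fit CX3CL1-ct 4 to 6 carry no weight, each having a number of its own, and 4 residual degrees of freedom are left. Its calls are therefore less secure than a fit with a labelled pairing would give. Alternatives were pseudocounts, filters, scalings, the prior, the groups fitted, the block and leaving out each library; averaging CX3CL1-ct 1 to 3 was chosen after seeing the data.

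The genes and lists were chosen with earlier results of these data known, so no test was made over a list. Named in full are members past the threshold, the 6 largest differences per comparison, and Syn1, Snap25, Vamp2, Syt1, Syp, Slc17a6, Slc17a7 and Bsn; of the wider list, genes past the threshold or else the 2 with the smallest p; 1 gene so chosen is not reported here. Other genes were named after their values were seen. Of the 13 marker lists those not named in the results overlapped in all comparisons: the neocortex sum was 270 to 464 FPKM, choroid plexus 105 to 2350, astrocyte and radial glia 1064 to 1449, microglia 75.3 to 111, oligodendrocyte lineage 126 to 154, endothelial 75.6 to 117, and ribosomal proteins 2925 to 3644.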

Additional observations from a re-analysis of the deposited data

Results flagged for a closer look

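For each gene, among the 6 CX3CL1-ct libraries, the gap between an extreme library and its nearest neighbour was set against the group's range, and 10 of the 39 genes exceeded Dixon's critical value. Chance alone gives about 1 such case in 20 groups. Over all 16503 genes tested the share was 12.9%, and 8.28% with CX3CL1-ct 5 as the extreme library, beside 9 and 7 of the 38 presynaptic genes tested, or 23.7% and 18.4%. In 8 of the 10 the library was CX3CL1-ct 5. It was the highest for Slc17a6 at 57.5 FPKM, Rab3c, a Rab3 form, at 62.4, Vamp1 at 14.5, Sv2c at 11.4, Unc13c at 9.18 and Syt2 at 3.80. It was the lowest for Slc17a7 at 17.4 FPKM and for Cplx1 at 25.4. The other 2 were Syt4 at 130 FPKM, highest in CX3CL1-ct 6, and Syngr1 at 56.9, highest in CX3CL1-ct 4.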

How the results depend on the processing

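Pseudocounts, filters, scalings, the prior and fitting 2 groups changed no call among the 38 genes. For CAMK against WT the replicate block gave 7 calls, and leaving out 1 library 0 to 1 (Nrxn2 without WT 1); the median difference ranged from 0.089 (without WT 2) to 0.23 (without WT 1). For CX3CL1-ct against either group 0 of 38 were called in all alternatives. The median against WT fell to 0.03 with quantile and 0.05 with median-ratio scaling, and against CAMK reached -0.14 with the block and -0.13 with median-ratio scaling. In the same order the medians over all genes were 0.0032 and 0.0014 against WT, and 0.029 and -0.0028 against CAMK. Of the wider list, 1 call for CX3CL1-ct against WT became 0 with at least 1 FPKM in all 12 libraries, with either scaling, with only 2 groups and with CX3CL1-ct 1 to 3 averaged, 4 with the replicate block, and 0 to 2 with 1 library left out; for CAMK against WT it became 0 with only 2 groups and with the averaging, 5 with the block and 0 to 3 with 1 library left out. The cause was not tested. Of 990 values of single genes under alternatives, 28 had the other sign and 0 of these were called. Against WT in CX3CL1-ct, the block gave -0.0069 for Vamp2, 0.28 for Synpr and -0.18 for Unc13c; quantiles gave -0.023 for Vamp2 and -0.014 for Slc17a7, which was -0.012 with median-ratio scaling and -0.18 with the averaging. Slc17a7 in CX3CL1-ct against CAMK was 0.36 with the block. All block values for CX3CL1-ct rest on CX3CL1-ct 1 to 3 alone, so they also reflect a different set of libraries. With 1 library left out, Slc17a7 ran from -0.25 to 0.46 (CAMK against WT), -0.31 to 0.47 (CX3CL1-ct against WT) and -0.28 to 0.37 (CX3CL1-ct against CAMK), Snap25 from -0.12 to 0.046 (CAMK against WT) and -0.16 to 0.011 (CX3CL1-ct against WT), Stx1a from -0.26 to 0.0075 (CX3CL1-ct against CAMK), and, against WT in CX3CL1-ct, Synpr from -0.63 to 0.27 and Unc13c from -0.057 to 0.11. Low genes such as Syt2 and Cplx3 are limited by depth.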
